A study of Homo sapiens with 6 samples.

Results

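Connexins are membrane proteins that assemble into rings in the plasma membrane. Rings of neighbouring cells dock to form gap junction channels, through which ions and small signalling molecules pass from cell to cell. In the endometrium, GJA1 (Cx43) is the main connexin of the stroma and GJB2 (Cx26) is known from the surface and glandular epithelium, and both are regulated by ovarian steroids there. The 7 connexin genes described here are GJA1, GJA3, GJB1, GJB2, GJB5, GJC1 and GJD3. They were chosen by family membership and because GJA1 was strongly lower in the knockout clones, so the contrast of knockout with parental cells is described for them without a test. They are 7 of the 26364 genes in the deposited count table, and 6 of the 7 had enough reads to be tested.

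The cells were Ishikawa cells, a human endometrioid adenocarcinoma line that responds to estrogen. Parental cells and 2 clones (clone 1 and clone 2) with a knockout of ETV4, a transcription factor of the ETS family, were each sequenced once after the vehicle, 0.1% DMSO, and once after 10 nM 17β-estradiol (E2). All 3 lines had spent 5 days in hormone-depleted medium, and the labels disagree on the treatment time, with 8 h in the protocol and 1 h in the characteristics. Each knockout line is a single clone, the parental line has 1 library per treatment, and the method of knockout is not given in the sources used here. Differences between parental and knockout cells therefore cannot be told apart from differences between lines, and p-values measure only the spread between these libraries.

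Library totals ran from 28037392 to 36829479 counts. ETV4 itself stood at 586 and 1063 counts in the parental libraries and at 71 to 122 counts in the 4 clone libraries, which separates the libraries as labelled. All 10 epithelial marker genes averaged at least 1 CPM (the usual unit of counts relative to library size, after scaling by the trimmed mean of M-values), and their summed level was 2657 to 3618 CPM in the clones and 2880 to 3572 CPM in the parental line. Of 10 stromal markers 5 reached that average, with sums of 50.0 to 76.1 CPM in the clones and 63.6 to 92.4 CPM in the parental line. Only 1 of 5 endothelial and 1 of 5 leukocyte markers did so, with sums of at most 4.58 and 4.86 CPM in any library.

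The upstream sequences of GJA1 and GJA3 are shown because these are the connexin genes that passed the test between the clones, reported further on. ETV4 belongs to the ETS family, whose members bind a GGAA core. Each run holds the 250 bases before the transcription start, on the gene's own strand, from RefSeq's promoter table on GRCh38.p14, which is not the hg19 build named in the submitters' processing notes. Capitals mark every GGAA (read as TTCC when it lies on the other strand) and every TGANTCA, the core recognised by the AP-1 factors JUN and FOS. GJA1 lies at chr6:121435396-121435645 (plus strand) and GJA3 at chr13:20161053-20161302 (minus strand).
GJA1: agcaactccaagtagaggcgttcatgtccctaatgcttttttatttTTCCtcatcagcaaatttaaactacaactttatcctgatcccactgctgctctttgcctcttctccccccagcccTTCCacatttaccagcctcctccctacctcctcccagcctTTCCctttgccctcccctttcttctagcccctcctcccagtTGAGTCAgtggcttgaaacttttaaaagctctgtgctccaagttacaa
GJA3: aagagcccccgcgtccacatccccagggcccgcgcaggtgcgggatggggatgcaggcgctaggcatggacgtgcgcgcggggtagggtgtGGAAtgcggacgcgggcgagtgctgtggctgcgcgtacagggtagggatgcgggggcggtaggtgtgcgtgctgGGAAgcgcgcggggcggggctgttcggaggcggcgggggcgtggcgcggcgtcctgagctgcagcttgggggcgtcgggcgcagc

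The GJA1 run holds 3 GGAA cores, beginning 204, 129 and 89 bases before the start and all on the strand opposite to the gene. It also holds 1 TGANTCA match, 48 bases before the start. The GJA3 run holds 2 GGAA cores, beginning 159 and 85 bases before the start, and no TGANTCA. Of the 35116 promoters in the table, 92.7% hold at least 1 GGAA within the same 250 bases, with a median of 3, and 6.57% hold a TGANTCA. The longer core CCGGAA, which contains GGAA and is held by 14.5% of promoters, was found in neither run, nor was the palindromic estrogen response element (GGTCA, any 3 bases, TGACC), held by 0.0399%. Both strands were searched, and a match or its absence is a description of these letters only. The table matched 4 of the 7 genes by symbol (GJA1, GJA3, GJB1 and GJB2). The GGAA core occurs 5 times in the same window of GJB2, which encodes Cx26, and 2 times in that of GJB1.

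GJA1, which encodes Cx43, the most widely expressed human connexin, was the dominant connexin mRNA of the parental line and was far lower in both clones. Parental cells gave 26349 counts with DMSO and 25866 with E2, which is 886 and 691 CPM. Clone 1 gave 703 and 537 counts, or 19.6 and 18.4 CPM in the same order. Clone 2 gave 1591 and 1463 counts, or 54.3 and 50.0 CPM. The vehicle value comes first throughout. Every clone library thus lay below both parental libraries, and the clones did not overlap each other. With DMSO, clone 1 held 2.22% and clone 2 held 6.13% of the parental GJA1 level, and in E2 the shares were 2.66% and 7.23%. GJA1 took 0.0796% of all counts of the parental DMSO library (95% Wilson interval 0.0786% to 0.0805%) and 0.00198% of those of clone 1 in DMSO (0.00184% to 0.00213%). These intervals, like the others on counts, cover counting error only. GENCODE v29 annotates a processed pseudogene copy of GJA1 (GJA1P1), which was not analysed here, and how reads shared with it were counted is not given in the sources used here.

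**Figure D1:**
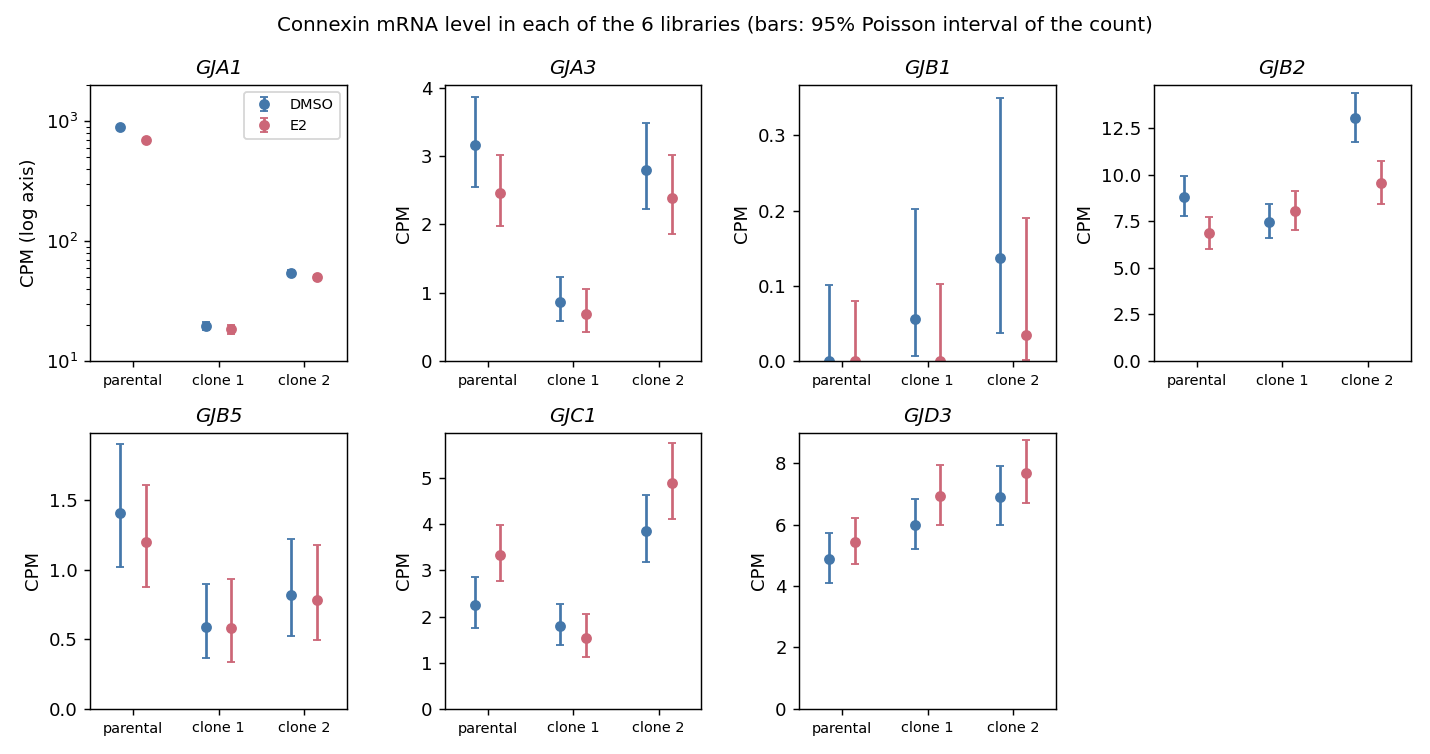
CPM of each of the 7 connexin genes (vertical axis, logarithmic for GJA1 and linear from 0 for the others) in the parental line and the knockout clones, with blue points for DMSO, red points for E2 and bars for the 95% Poisson interval of the count (up to 3 counts where the count is 0). GJA1 lies at 691 to 886 CPM in the parental line and at 18.4 to 54.3 CPM in the clones, while GJA3 is low in clone 1 alone and GJB1 is near 0 in every library.

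GJA3, the other alpha connexin of the set, encodes Cx46, best known from the fibre cells of the eye lens. Parental cells gave 94 and 92 counts (3.16 and 2.46 CPM). Clone 2 had 82 and 70 counts, which is 2.80 and 2.39 CPM. Clone 1 had 31 and 20 counts, which is 0.865 and 0.686 CPM. The clone 2 libraries were thus close to the parental ones, and both clone 1 libraries lay below all others: against the parental library of the same treatment, the log2 difference was -1.80 and -1.75 for clone 1 and -0.17 and -0.04 for clone 2.

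Among the beta connexins of the set, GJB2 was the most abundant per length in every library and GJB1 was barely detected. GJB2 had 262 and 256 counts in parental cells (8.81 and 6.84 CPM), 268 and 234 in clone 1 (7.48 and 8.02 CPM) and 381 and 279 in clone 2 (13.0 and 9.53 CPM). The parental and clone 1 values overlapped, and the clone 2 DMSO library was the highest of the 6. GJB5, a connexin of stratified epithelium and of placental trophoblast, had 42 and 45 counts in the parental line (1.41 and 1.20 CPM). It had 21 and 17 counts in clone 1 (0.586 and 0.583 CPM) and 24 and 23 in clone 2 (0.820 and 0.786 CPM). All 4 clone libraries were below both parental ones for GJB5, with log2 differences of -1.18 to -0.58 within a treatment. GJB1 (Cx32), the main connexin of hepatocytes and of Schwann cells, had 0 counts in both parental libraries and in clone 1 after E2, and 1 to 4 counts in the other 3 libraries. A count of 0 allows a level of up to 0.101 CPM in the parental DMSO library and 0.0802 CPM in the parental E2 library (3 counts per library). The highest GJB1 level, 0.137 CPM from 4 counts in clone 2 with DMSO, had a 95% Poisson interval of 0.0372 to 0.350 CPM that includes both limits, and GJB1 was not tested.

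GJC1, the gamma connexin (Cx45), is expressed early in heart and vessel development. Parental cells gave 67 and 125 counts (2.25 and 3.34 CPM), and within each treatment the parental CPM lay between those of the clones. Clone 1 had 64 and 45 counts (1.79 and 1.54 CPM), and clone 2 had 113 and 143 (3.86 and 4.89 CPM). GJD3, the delta connexin, had 145 and 203 counts in the parental line (4.87 and 5.42 CPM), 214 and 202 for clone 1 (5.97 and 6.92 CPM) and 202 and 225 in clone 2 (6.90 and 7.69 CPM). Every clone library was above both parental libraries for GJD3, by 0.29 to 0.50 on the log2 scale within a treatment. An antisense gene overlaps GJD3 in GENCODE v29. The library kit keeps strand, but whether the counting used it is not given in the sources used here, so the GJD3 counts may hold reads of that gene.

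Among the 7 genes, 2 (GJA1 and GJB5) had all 4 clone libraries below both parental libraries, where 7.82% of the 15611 tested genes did, and 1 (GJD3) had all 4 above, where 8.53% did. The set was chosen with this contrast in view, and these counts are given as a description. In the model with treatment, the fitted log2 difference between clones and parental line was -4.46 for GJA1, -0.91 for GJB5, -0.74 for GJA3, 0.12 for GJC1, 0.29 for GJB2 and 0.41 for GJD3. Single clones moved several of these: without clone 1 the difference was -0.12 for GJA3, 0.64 for GJC1 and 0.51 for GJB2, and without clone 2 it was -1.85, -0.73 and -0.0048. By limma-voom it was -0.06 for GJC1, so the direction for GJC1 depended on the clone and the tool, and for GJB2 on the clone. The median of the 6 was -0.31, against 0.01 over all tested genes, and is likewise a description only. It lies between the values of GJA3 and GJC1, which both moved with the clone left out. In bulk RNA, fewer cells with a transcript and less of it per cell cannot be told apart.

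Levels of different connexins were compared per kilobase of the longest coding transcript in GENCODE v29, summed over 20 connexin genes. The GJA1 share of this sum was 95.3% and 94.5% in parental cells. It was 32.4% and 28.997% in clone 1, and 49.4% and 49.0% in clone 2. The 19 other connexin genes together stood at 13.8 and 12.8 CPM per kb in parental cells, 13.0 and 14.3 for clone 1, and 17.6 and 16.5 for clone 2. The clone 2 sums were the highest, and clone 1 lay below the parental line in DMSO and above it in E2. In clone 1 GJD3 ranked first of the 20 genes at 6.75 CPM per kb in DMSO, ahead of GJA1 at 6.23 and GJB2 at 3.17. The GENCODE model of GJD3 spans 885 bases of coding sequence only, which raises its level per length. With GJD3 left out, GJA1 made up 97.1% of the parental DMSO sum, 50.1% in clone 1 and 63.7% in clone 2.

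**Figure D2:**
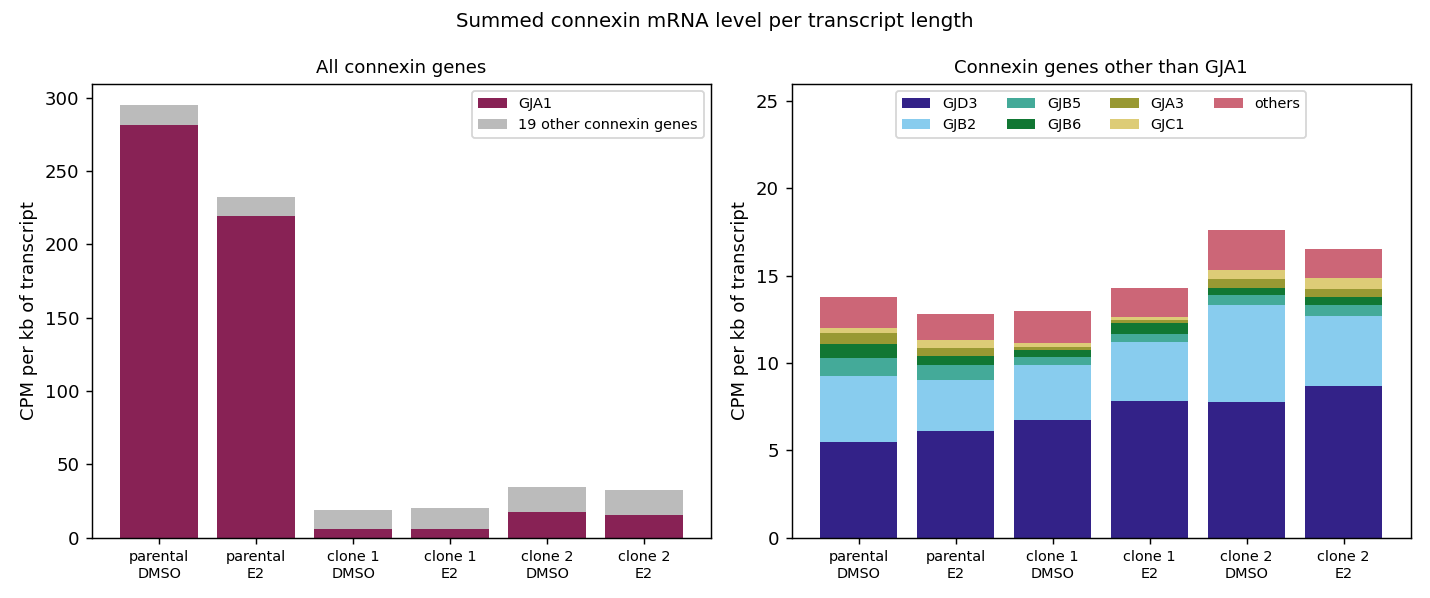
Summed connexin level per kilobase of transcript (vertical axes, CPM per kb, from 0) in the 6 libraries: GJA1 and the 19 other connexin genes on the left, and the genes other than GJA1 on the right, by name or pooled as others. GJA1 fills 95.3% of the parental DMSO bar and 32.4% of that of clone 1, while the other connexins sum to 12.8 to 17.6 CPM per kb in every library.

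The genes whose pattern was most like that of GJA1 were sought among 553 genes averaging at least 2 CPM and spanning at least 2 log2 units across the libraries. By Pearson's r of log2 CPM over 6 libraries that share 3 lines, they were ALDH3A1 (r = 0.998), TUBB4A (0.989), COL3A1 (0.978), FAM208A (0.975) and TNNT1 (0.971). Within the connexin set, GJB5 had r = 0.987 with GJA1 but averaged 0.898 CPM, under the limit. For GJA3, GJC1, GJB2 and GJD3 r was 0.74, 0.25, -0.18 and -0.76. ALDH3A1, an aldehyde dehydrogenase, stood at 101 and 91.1 CPM in parental cells, 3.46 and 3.19 CPM for clone 1, and 7.24 and 6.59 CPM for clone 2. It was therefore low in both clones and lowest in clone 1, as GJA1 was. COL3A1, a fibrillar collagen gene and one of the 10 stromal markers, stood at 7.93 and 9.73 CPM in the parental line and at 1.34 to 3.35 CPM in the clones. VIM, the intermediate filament gene of mesenchymal cells and another stromal marker, stood at 3.63 and 2.54 CPM in the parental line, at 0.0341 CPM in clone 2 in DMSO and at 0 in the other 3 clone libraries. VIM was the only one of the 7 tested stromal markers to pass the test of knockout against parental (Benjamini-Hochberg adjusted p 0.0131 from edgeR). It met the filter on low counts only through the parental libraries, where it was high, so its call is a description only. The model had no term for line, so the DMSO and E2 libraries of a line counted as replicates. COL3A1 had an adjusted p of 0.117 in that test, and the defining stromal markers DCN, LUM and PDGFRB, which were not tested, were below 0.1 CPM in every library. COL1A1, the most abundant stromal marker, overlapped between the groups, at 44.8 to 70.7 CPM in the clones and 49.3 and 75.2 CPM in parental cells. THY1 alone among the 7 tested stromal markers had a positive fitted difference, 0.75 (adjusted p 0.448 from edgeR). COL1A2, PDGFRA and ZEB1 had fitted differences of -1.58, -1.16 and -0.87 and did not pass. COL1A2 and PDGFRA averaged below 1 CPM. The part of these markers in the GJA1 difference was not tested.

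**Figure D3:**
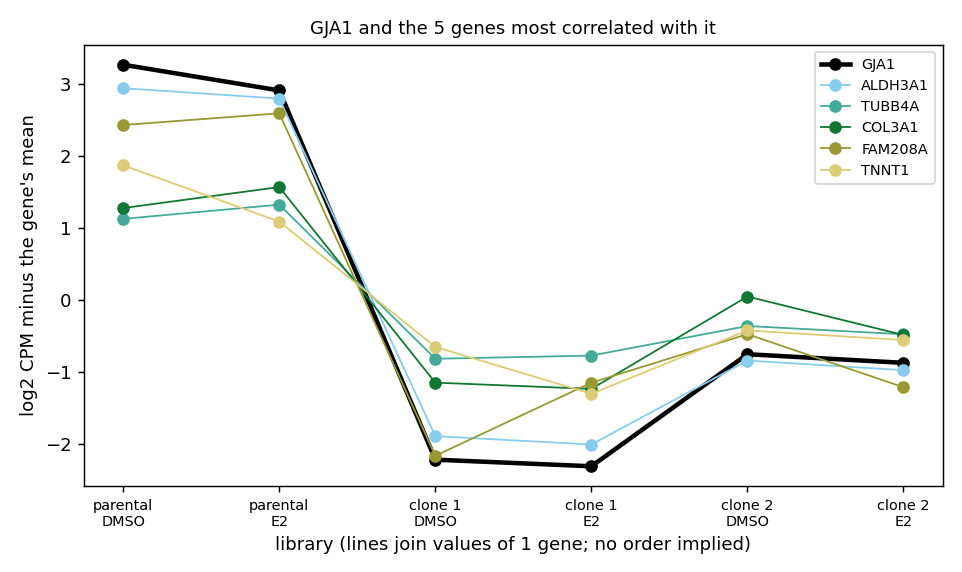
Log2 CPM of GJA1 (black) and of the 5 genes most correlated with it, each minus its own mean (vertical axis, log2 units), in the 6 libraries. ALDH3A1 follows GJA1 most closely (r = 0.998), with both clones below the parental line and clone 1 lowest.

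The difference between the clones was not used to choose the genes, and it was tested with treatment in the model, the DMSO and the E2 library of a clone standing in for replicates. GJA1 and GJA3 were higher in clone 2 than in clone 1, and the other connexin genes did not pass. GJA1 was 2.77-fold higher in clone 2 in DMSO and 2.72-fold higher in E2, a fitted log2 difference of 1.46 (SE 0.16, 95% interval 1.06 to 1.85) with an adjusted p of 0.0194. GJA3 differed by 1.74 (SE 0.25, interval 1.12 to 2.36) with an adjusted p of 0.0495. Both p-values are edgeR's, adjusted by Benjamini-Hochberg over all tested genes. Thus 2 of the 6 tested connexin genes passed, both higher in clone 2, where 0.871% of all tested genes passed in either direction and 0.243% were higher in clone 2. GJC1 was 1.37 higher on the log2 scale (SE 0.27) with an adjusted p of 0.117, and GJB2 was 0.52 higher (SE 0.20) with an adjusted p of 0.377. GJB5 and GJD3 differed by 0.46 (interval -0.35 to 1.27) and 0.18 (interval -0.24 to 0.60). All 6 fitted differences were positive, with a median of 0.94 against 0.0037 over all tested genes. GJA3 missed the threshold when at least 10 counts were required in every library (adjusted p 0.0591). Without the parental line, on 1 residual degree of freedom, GJB2 and GJC1 passed as well, and the genes called over the whole table went from 136 to 2723.

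**Figure D4:**
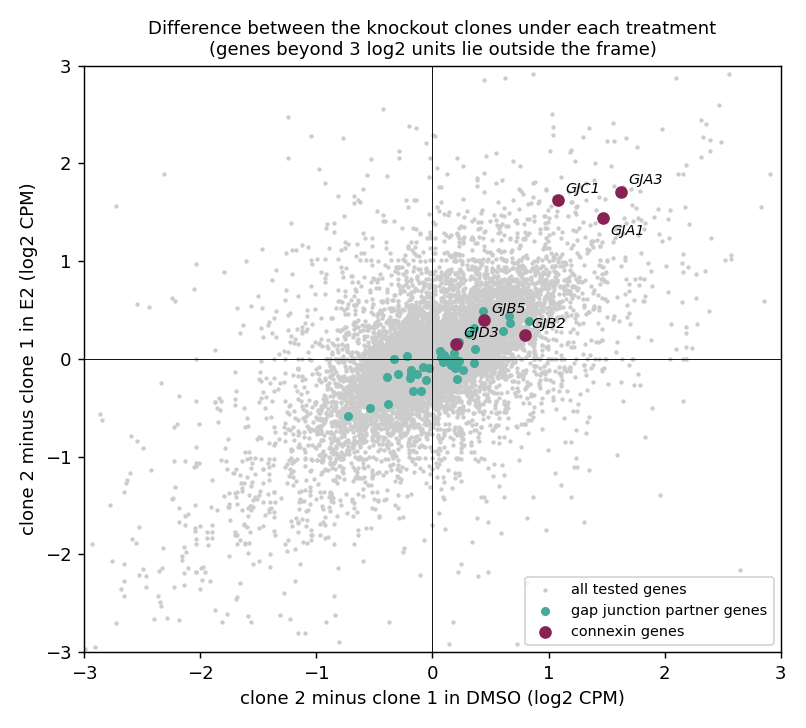
Clone 2 minus clone 1 in log2 CPM, in DMSO (horizontal axis) and in E2 (vertical axis), for all tested genes (grey), the gap junction partner genes (green) and the 6 tested connexin genes (purple, named). GJA1, GJA3 and GJC1 lie at 1.08 to 1.71 on both axes, and the partner genes lie nearer to 0.

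Whether E2 altered connexin mRNA was tested across all 3 lines, with the knockout as a term. None of the 6 tested connexin genes passed, where 1.13% of all tested genes did, and 0 of the 6 had an unadjusted p under 0.05, where 20.4% of all tested genes did. DESeq2's Wald test, which called 7.58% of the genes it gave an adjusted p, and limma-voom also called 0 of the 6. GJA1 was lower after E2 in each line, by a log2 ratio of -0.36 for parental cells, -0.09 for clone 1 and -0.12 for clone 2. The parental DMSO library had a scaling factor of 0.899, where the others had 1.01 to 1.04. Relative to unscaled library totals, parental GJA1 stood at 796 CPM with DMSO and 702 CPM with E2, a smaller fall. In the deposited signal, scaled by median-ratio size factors, it stood at 28137 and 21776, a fall close in proportion to that in scaled CPM. The fitted change of GJA1 was -0.19 (SE 0.46), with a 95% interval of -1.29 to 0.90 and an adjusted p of 0.820 (edgeR, Benjamini-Hochberg). GJA3 also had negative ratios in each line, from -0.35 to -0.22, with an interval of -1.62 to 1.06. GJD3 had positive ratios in each line, from 0.15 to 0.21, and a fitted change of 0.17 (interval -0.23 to 0.58). GJC1 differed in direction among the lines, at 0.56 for parental cells, -0.20 for clone 1 and 0.34 for clone 2, with an interval of -0.82 to 1.46. GJB2 and GJB5 had fitted changes of -0.27 (interval -0.83 to 0.29) and -0.11 (interval -0.85 to 0.64). This model had no term for line, so the difference between the clones counted as spread in these intervals. With line as a replicate block the interval for GJA1 narrowed to -0.51 to 0.12. Those for GJA3 and GJC1 narrowed to -0.78 to 0.17 and -0.27 to 0.78. No connexin gene passed with the block, and the genes called over the whole table went from 176 to 384.

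**Figure D5:**
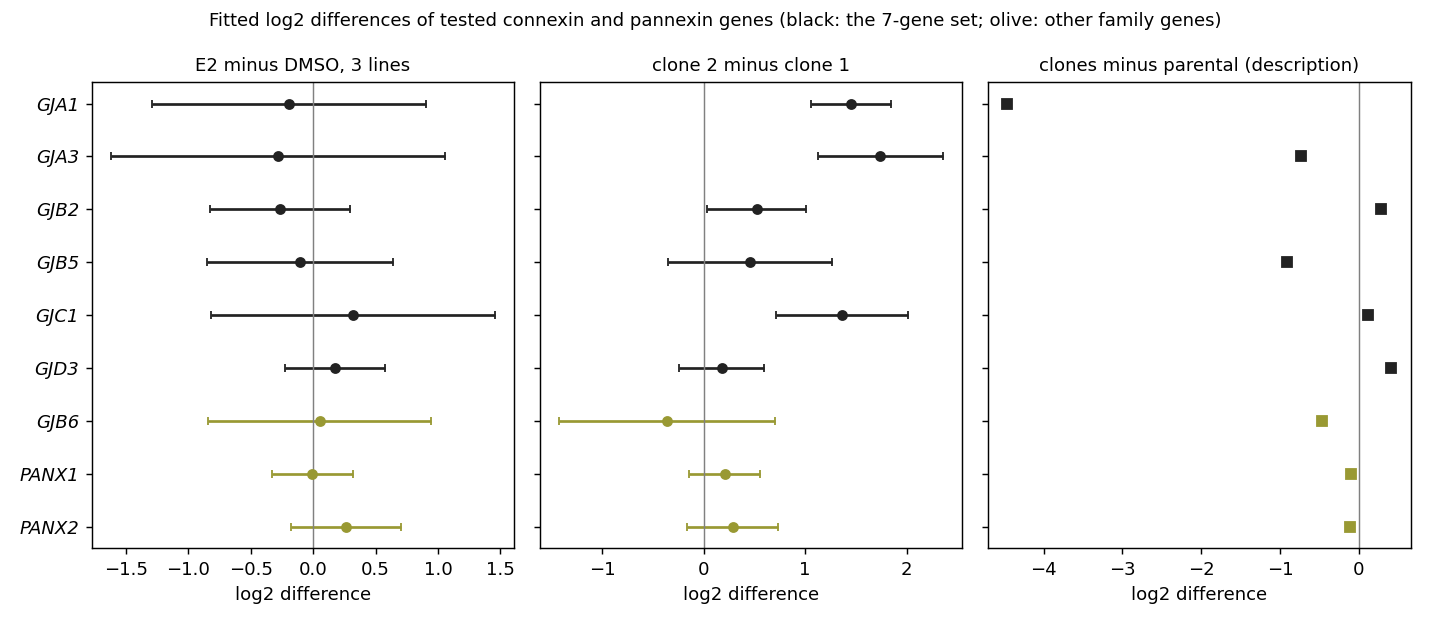
Fitted log2 differences (horizontal axes) of the 6 tested genes of the set (black) and of GJB6, PANX1 and PANX2 (olive) for E2 minus DMSO, clone 2 minus clone 1, and clones minus parental line, with bars for 95% intervals in the first 2 panels and none in the third, which is a description. The E2 intervals of the 6 genes of the set include 0, and in the clone panel GJA1 stands at 1.46 and GJA3 at 1.74.

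The E2 effect in the clones was compared with that in the parental line by the interaction. None of the 6 genes passed, and 0% of all tested genes did (1190 of them, 7.62%, had an unadjusted p under 0.05, against 0 of the 6). DESeq2 called 29 genes, 1.46% of the 1992 it gave an adjusted p, of which GJA1 was the only one of the 6 and did not pass, and limma-voom called 0. For GJA1 the E2 change in the clones minus that in the parental line was 0.25 (SE 1.00, interval -2.18 to 2.68) in the model without line. With line as a replicate block, which left 1 residual degree of freedom, it was 0.25 (SE 0.26, interval -0.26 to 0.76, adjusted p 0.568), and 2470 genes passed with no connexin gene of the set among them. That interval uses an estimate of spread shared across genes and is narrower than 1 degree of freedom alone would give.

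Of the other family genes, GJB6, PANX1 and PANX2 are reported here. None of the 3 passed for E2, for the clones or for knockout against parental, the contrast in which 0.327% of all tested genes passed. In those comparisons 0 of the 3 had an unadjusted p under 0.05 in edgeR's quasi-likelihood test, and DESeq2 and limma-voom called 0 in each. GJB6 (Cx30), which is co-expressed with GJB2 in the inner ear, stood at 1.78 and 1.02 CPM in parental cells. In the clones GJB6 stood at means of 0.839 ± 0.0762 and 1.20 ± 0.293 CPM (SD, n = 2). It was thus higher after E2 in both clones and lower in the parental line, with an interaction of 1.32 (SE 0.67) and an adjusted p of 0.617 (edgeR, Benjamini-Hochberg). PANX1 and PANX2, which form single-membrane channels, had fitted knockout differences of -0.09 and -0.10.

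Genes whose proteins act with gap junctions were read from a list of 43: junction scaffolds, assembly and trafficking factors, kinases acting on Cx43, turnover factors and transcription factors of the GJA1 promoter. All 43 were in the table and 42 could be tested (TBX3 could not). In edgeR's quasi-likelihood test none of the 42 passed for E2, for the clones or for knockout against parental, and none had a fitted difference of 2-fold in any of the 3. At an unadjusted p under 0.05 there were 8 for E2, 5 for the clones and 5 for knockout against parental, where 20.4%, 12.1% and 11.4% of all tested genes passed, so these counts lie near the background. DESeq2's Wald test called 3 for E2 (AKT1, JUP and PRKCD), 0 for the clones and 1 for knockout against parental (JUN), and limma-voom called 0 in each. Of all genes given an adjusted p, DESeq2 called 7.58%, 2.36% and 2.97% in these comparisons, so its calls in the list are near the background as well. The adherens junction genes CDH1, CDH2 and CTNNB1 had knockout differences of -0.20, 0.13 and -0.04, and TJP1, whose product ZO-1 binds the tail of Cx43, had 0.45 (adjusted p 0.360). The widest knockout differences of the list, picked as its extremes, were those of JUN and NOV. JUN, a subunit of AP-1, was 0.90 higher in the clones (SE 0.15, adjusted p 0.0948), and without clone 2 it passed. NOV (CCN3), a matricellular protein that binds Cx43, had a difference of -0.67 (SE 0.21, adjusted p 0.317). Over the 42 genes the median knockout difference was 0.03, against 0.01 over all tested genes.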

How the data were processed

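Gene counts of 6 poly(A)-selected RNA-seq libraries were analysed. The deposited raw table holds whole-number counts per gene. Per the submitters' processing notes, HISAT2, SAMtools, Subread and DESeq2 were used with hg19; versions, annotation, strand setting and treatment of multi-mapped reads are not given in the sources used here. A further deposited table gives a scaled signal. Dividing the raw counts by median-ratio size factors, as DESeq2 computes them, returned it to within a relative 4.88e-15, and it served only as an alternative for GJA1. No 2 libraries were identical.

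The filter filterByExpr of edgeR 4.0.16 (R 4.3.3), given 4 groups by genotype and treatment, left 15611 of 26364 genes. Libraries were TMM-scaled, and every gene went through the quasi-likelihood F-test, calls being made at a Benjamini-Hochberg adjusted p of 0.05. E2 was tested with genotype, the interaction with both, and clone 2 against clone 1 with line and treatment in the model, leaving 3, 2 and 2 residual degrees of freedom. The quasi-likelihood test also shares information on spread across genes, so its intervals and p-values rest on more than the residual degrees of freedom. Standard errors were derived from each log2 coefficient and its F statistic. Log2 ratios of one library to another carried a prior count of 2. The fold differences of GJA1 between the clones and its percentages of the parental level were taken from CPM without it. The procedures were run on simulated data drawn without pairing by line, so that run does not show how they handle such pairing. In the deposited data libraries of 1 line pair by line, and the clone difference in DMSO correlated with that in E2 across genes at 0.626. Alternatives included DESeq2 1.42.0 and limma 3.58.1. The connexin genes and lists were chosen with earlier results of these data known. Named genes were all 7 connexins, other family and partner genes past the threshold or, for connexins, averaging at least 1 CPM (some are not reported here), and the 5 genes most correlated with GJA1; other genes named were picked after their values were seen.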

Additional observations from a re-analysis of the deposited data

How the results depend on the processing

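Counts over all tested genes depended on the tool and on single lines. For E2 they were 176, and 1115 by DESeq2, 384 with line as a replicate block, and 49 (without the parental line) to 3353 (without clone 2) when a line was left out, with 745 without clone 1. For the interaction they were 0, and 29 by DESeq2 and 2470 with the block. It could not be fitted without a clone, which leaves no residual degrees of freedom. Between the clones they were 136, and 236 without a filter, 63 with at least 10 counts in every library, 369 by DESeq2 and 2723 without the parental line. Connexin genes called between the clones were 2, and 1 with at least 10 counts in every library, 3 by DESeq2 (GJC1 added) and 4 without the parental line. For knockout against parental the counts were 51, and 454 by DESeq2, and 631 (without clone 1) to 996 (without clone 2). The cause of these shifts was not tested. The adjusted p of GJA1 between the clones stayed below the threshold in all 6 alternatives and that of GJA3 in 5 of 6. GJC1 passed in 2. No connexin gene of the set passed for E2 in any of the 9 alternatives, and the block changed no connexin call. The GJD3 interaction, 0.03, became -0.0042 with at least 10 counts in every library. The GJA1 difference between clones and parental line was -3.92 without clone 1 and -5.36 without clone 2. Ranked by root-mean-square distance in place of correlation, 2 of the 5 genes nearest to GJA1 were shared (ALDH3A1 and FAM208A). GJB1, with 7 counts over the 6 libraries, is below what this depth resolves.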
